A study of Mus musculus with 4 samples.

Results

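The complement subunit genes C1qa, C1qb and C1qc were examined together with Apoe, Trem2, Cd72 and Ms4a7, 7 of the 31053 genes in the deposited feature table. They were taken by gene symbol, and each symbol had 1 row. The set was chosen because earlier work on these libraries had found these genes at high levels in macrophages or different between treatments, so their levels and ratios are described and not tested. The libraries came from mouse lungs that carried small cell lung cancer (SCLC), grown from tumour cells placed directly in the lung. The lungs were perfused and digested whole, live cells were sorted with the dye DAPI, and RNA was sequenced from the 3′ end of transcripts in droplets. Control mice received vehicle and an isotype IgG. The second group received the anti-PD-1 antibody 29F.1A12, directed at an inhibitory receptor carried by T cells, at 200 µg per mouse. The remaining groups received YKL-5-124, an inhibitor of the kinase CDK7, at 10 mg/kg, alone or with the antibody, and the latter is called the combination. All 4 groups carried the same kind of tumour. The labels do not state the mouse strain, the age or how many animals went into a library. The labels name the cell type as mouse SCLC, yet most cells were immune cells by their markers.

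Each group had 1 library, so the spread between animals is unknown for every value. Where 4 values follow each other without library names they are in the order control, anti-PD-1, YKL-5-124, combination. All intervals are exact 95% intervals for counting error alone. The libraries held 17329001 to 22950622 unique molecular identifiers (UMIs, each standing for 1 captured RNA molecule). Barcodes that held 500 or more UMIs, 300 or more genes and no more than 10% mitochondrial UMIs numbered 14411, and 13985 cells remained after 426 likely doublets were removed. These were 3384 cells in control, 2676 under anti-PD-1, 4014 under YKL-5-124 and 3911 in the combination, with median depths of 1913 to 2193 UMIs. The libraries shared cell barcodes: each pair had 469 to 537 in common, where independent draws would give 12.9 to 22.8. In all, 658 barcodes occurred in more than 1 library, and 450 occurred in all 4. Of the 13985 cells, 1459 (10.4%) were copies with under 1/10 of the count that the same barcode had in another library, and their median depth was 835 UMIs. Of the 1748 cells in the monocyte, macrophage or dendritic class, 1 was such a copy, and none of the cells rich in C1q was.

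C1q is the recognition part of the first complement component. Its A, B and C chains assemble into a bouquet-shaped protein that binds antibody complexes and dying cells, and with the proteases C1r and C1s it starts the classical pathway. Tissue macrophages are a major source of C1q. Apolipoprotein E, the product of Apoe, carries cholesterol and other lipids between cells. Trem2 is a lipid-sensing receptor of macrophages that binds apolipoproteins and signals through the adaptor Tyrobp. Ms4a7 encodes a membrane protein of the MS4A family found on macrophages. Cd72 is an inhibitory co-receptor best known from B cells, which binds Sema4d and recruits the phosphatase Ptpn6.

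The 3 C1q genes are neighbours. In GRCm38 (GENCODE M21), C1qb lies at chr4:136880129-136886187, C1qc at chr4:136889804-136893065 and C1qa at chr4:136895917-136898803, all on the minus strand and with 3 exons each. They span 18675 bases with 3616 and 2851 bases between them and no other annotated gene inside. Apoe lies at chr7:19696109-19699188 on the minus strand, Trem2 at chr17:48346401-48354147 on the plus strand, Cd72 at chr4:43446462-43454628 on the minus strand and Ms4a7 at chr19:11321039-11336146 on the minus strand. Cd72 overlaps Tesk1 on the opposite strand, and whether the counting used strand was not stated in the labels or headers. RefSeq promoter entries (GRCm38.p6) were matched for 6 of the 7 genes, the exception being C1qa. The bases upstream of the annotated gene are shown for 4 of the genes that were highest in macrophage-like cells, each on its gene's strand from 5′ to 3′. Capitals mark GAGGAA or its reverse complement TTCCTC, the core sequence bound by the myeloid factor PU.1 and related ETS proteins, and TGCTGA, a MAF half-site. Both strands were searched.
C1qb, chr4:136886201-136886450, minus strand: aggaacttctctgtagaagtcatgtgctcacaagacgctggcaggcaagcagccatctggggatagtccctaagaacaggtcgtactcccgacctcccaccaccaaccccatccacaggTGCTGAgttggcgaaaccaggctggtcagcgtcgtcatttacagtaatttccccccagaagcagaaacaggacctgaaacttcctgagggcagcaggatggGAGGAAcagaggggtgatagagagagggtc
C1qc, chr4:136893066-136893164, minus strand: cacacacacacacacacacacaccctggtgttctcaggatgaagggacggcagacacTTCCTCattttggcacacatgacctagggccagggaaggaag
Trem2, chr17:48346151-48346400, plus strand: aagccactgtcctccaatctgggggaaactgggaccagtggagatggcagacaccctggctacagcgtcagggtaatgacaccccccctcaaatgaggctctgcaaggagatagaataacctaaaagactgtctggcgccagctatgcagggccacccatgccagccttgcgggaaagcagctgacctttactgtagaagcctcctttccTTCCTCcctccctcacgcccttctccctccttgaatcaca
Ms4a7, chr19:11336147-11336396, minus strand: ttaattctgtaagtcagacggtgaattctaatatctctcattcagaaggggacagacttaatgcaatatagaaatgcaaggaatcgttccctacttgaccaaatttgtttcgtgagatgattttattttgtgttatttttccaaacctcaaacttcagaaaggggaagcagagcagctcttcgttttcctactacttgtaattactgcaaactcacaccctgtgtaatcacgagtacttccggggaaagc
The first base of the GAGGAA core lay 30 bases from the gene-side end of the window in C1qb, 42 in C1qc and 40 in Trem2. The C1qb window, set by the RefSeq start, ends short of the GENCODE gene, and the other windows shown reach it. Ms4a7 held neither motif in this window, which says only that these letters are not there. In the windows not shown, that of Cd72 held the core 45 bases from that end, and that of Apoe held it at its far end. Of the 6 windows 5 (83.3%) held the core, and of all 32851 RefSeq promoter windows of 250 bases 23.3% did (9.91% at the 99 bases available for C1qc). The MAF half-site occurred in C1qb alone among the 6, against 16.1% of all windows of 250 bases. A match describes the letters and is not a measured binding site.

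C1q RNA was concentrated in a small macrophage-like population, and Ms4a7 largely followed it, while Apoe, Trem2 and Cd72 were each found in other cell types as well. Cells were clustered without these 7 genes and named from fixed markers. The macrophage-like cells numbered 198, with 40 in control, 42 under anti-PD-1, 48 under YKL-5-124 and 68 in the combination. They held 83.1% of all C1qa UMIs, 77.4% of those of C1qb and 84.0% of those of C1qc, but 1.53% of all UMIs in cells. The class consisted of 2 subclusters. Subcluster 4, with 143 cells, was led by Ccl7, Spp1, Ccl24, Arg1 and Pf4, and subcluster 9, with 55 cells, by Atp6v0d2, Hebp1, Slc40a1, Vcam1 and Il18bp. The markers that named subcluster 9 came from the alveolar macrophage list, yet its leading genes were mostly not markers of that list. The resident macrophage markers Mrc1, Pf4, Mertk and Folr2 stood at 138, 341, 23.9 and 30.1 UMIs scaled to a sum of 1000000 (CPM) in the class, against 0 to 0.310 CPM in classical and nonclassical monocyte-like cells together.

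Among the C1q chains, C1qa stood at 3355 CPM in the macrophage-like cells of control, 2263 under anti-PD-1, 2768 under YKL-5-124 and 1038 in the combination. C1qb stood at 3480, 2582, 3026 and 1125 CPM in the same order, and C1qc at 2886, 1656, 2237 and 915 CPM. For each chain the combination was lowest and control highest. The next levels were in 78 unnamed cells led by Retnla and Gzma, a gene of macrophages beside one of cytotoxic lymphocytes, with 364 CPM of C1qa, 505 of C1qb and 291 of C1qc over all libraries. Conventional dendritic 2-like cells held 88.4 CPM of C1qb, from 7 of 111 cells. In 243 unnamed monocyte-class cells led by Hpse and Id3, C1qb was 69.2 CPM over all libraries and 356 under anti-PD-1. The anti-PD-1 value came from 6.90% of 29 cells. Lymphocytes and tumour cells were near 0. C1qb UMIs occurred in 8 of 2651 T cell-like cells (0.302%, median depth 2076 UMIs) and in 14 of 2060 tumour-like cells (0.680%, median depth 9394 UMIs). Whether these came from RNA outside cells was not tested.

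**Figure D1:**
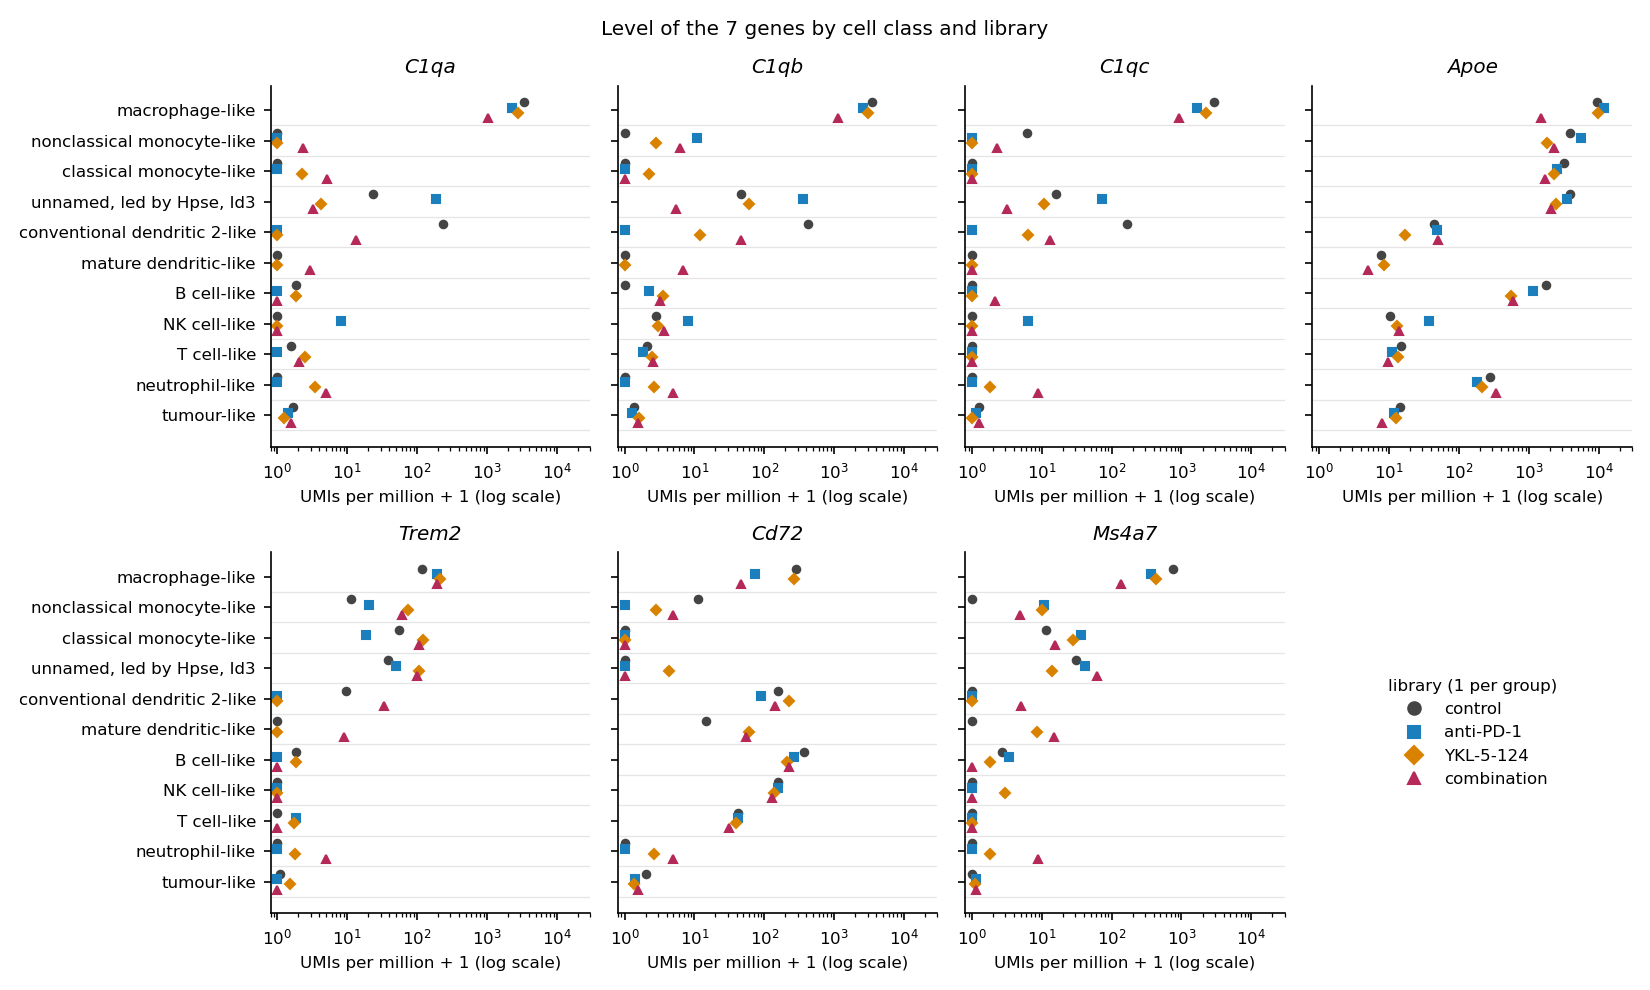
Levels of the 7 genes (x axis, UMIs scaled as CPM plus 1, log scale) by cell class or subset (y axis), with 1 point per library. C1qa, C1qb, C1qc and Ms4a7 are highest in the macrophage-like cells, Apoe is also high in both monocyte-like subsets, and Cd72 is highest in B cell-like cells.

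Counting cells without clusters gave the same picture. A cell was called C1q-rich with 3 or more UMIs of the 3 chains together, a range on a count and not a cell type. By this measure 163 of 13985 cells (1.17%) were C1q-rich, and they held 97.5% of all C1q UMIs in cells. Of the 163 cells, 125 carried all 3 chains, 29 carried 2 and 9 carried 1, and 120 (73.6%) were macrophage-like. A further 18 lay among the cells led by Retnla and Gzma, and none was classical or nonclassical monocyte-like, B cell-like or T cell-like. Just inside the limit lay 27 cells with 3 to 5 UMIs and just outside it 153 cells with 1 or 2 UMIs, and the highest cell held 262.

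The share of C1q-rich cells was 1.06% in control (0.746 to 1.47%), 1.27% under anti-PD-1 (0.882 to 1.77%), 1.07% under YKL-5-124 (0.776 to 1.44%) and 1.28% in the combination (0.95 to 1.68%). These intervals overlapped throughout. After every cell was thinned to 1500 UMIs, with 9571 cells deep enough, the shares were 0.968%, 1.39%, 1.18% and 1.07%. Without the low-count copies they were 1.18%, 1.52%, 1.17% and 1.41%. With a limit of 10 UMIs they were 0.857%, 1.08%, 0.847% and 0.767%, so the combination went from the highest share to the lowest, again with overlapping intervals. Among the rich cells, which were selected on the same count, the median was 26.5 C1q UMIs in control, 27 under anti-PD-1, 35 under YKL-5-124 and 14 in the combination. Rich cells of the combination were the deepest, with a median of 5632 UMIs against 3921 in control. In the combination 15 of 50 rich cells lay at 3 to 5 UMIs, against 5 of 36 in control, 2 of 34 under anti-PD-1 and 5 of 43 under YKL-5-124. The C1q ratios of the combination to control depended on the limit. In rich cells they were 0.459 for C1qa, 0.444 for C1qb and 0.471 for C1qc, and with 10 or more UMIs they were 0.704, 0.636 and 0.702.

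**Figure D2:**
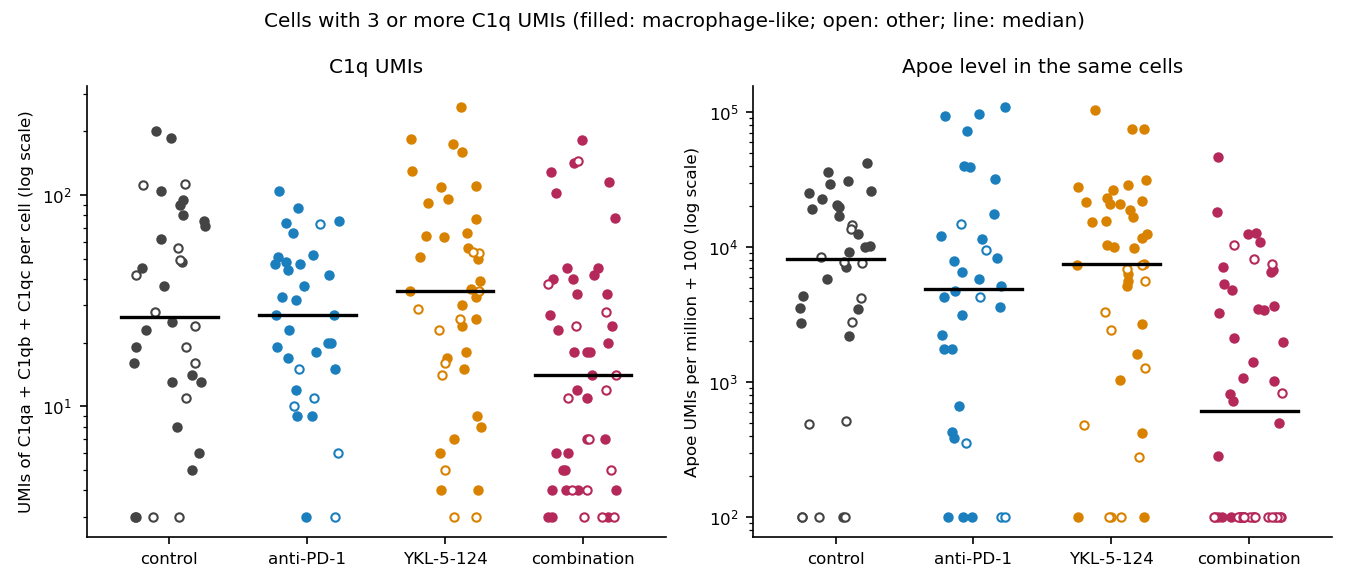
Each C1q-rich cell by library, with its C1q UMIs (left, log scale) and its Apoe level (right, CPM plus 100, log scale); filled points are macrophage-like, open points other cells and lines medians. The median is 14 C1q UMIs in the combination and 26.5 to 35 in the other libraries, and 23 of 50 rich cells of the combination lie at the bottom of the right panel with no Apoe UMI.

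The 3 chains kept nearly fixed proportions. In macrophage-like cells C1qa made up 34.4% of C1q UMIs, C1qb 37.4% and C1qc 28.2%. The C1qa share was 34.5%, 34.8%, 34.5% and 33.7% by library. C1qb ranged from 35.8 to 39.7%, and C1qc from 25.5 to 29.7%. The lower C1q level of the combination was thus shared by all chains. Barcodes of 10 to 100 UMIs, taken here as free RNA, had 38.0% C1qa, 32.9% C1qb (31.2 to 34.7%) and 29.1% C1qc. Whether some of these barcodes were low-count copies of cells was not tested. The C1qb share was higher in macrophage-like cells, and the 2 intervals did not overlap. The cells led by Hpse and Id3 had 62.0% C1qb (52.3 to 70.9%) and 13.3% C1qc, from 113 UMIs. Within these cells, C1qb UMIs occurred in 3.125% of 32, 6.90% of 29, 5.63% of 71 and 1.80% of 111 by library. The interval counts UMIs and not cells, so these shares rest on few cells. Other early genes of the classical and lectin pathways were barely seen in macrophage- and monocyte-like cells. Of the 7 genes on a list for the start of these pathways and its control (C1ra, C1s1, Serping1, C2, C4b, Masp1 and Masp2) 0 reached a mean of 10 CPM there.

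Ms4a7 was the member with the distribution most like C1q. Macrophage-like cells held 70.1% of its UMIs. Its level there was 767 CPM in control, 368 under anti-PD-1, 426 under YKL-5-124 and 137 in the combination, highest in control and lowest in the combination. Next came the cells led by Hpse and Id3 at 39.5 CPM, classical monocyte-like cells at 22.4 CPM and nonclassical monocyte-like cells at 5.84 CPM. It had no UMI in 2651 T cell-like cells, which allows a share of up to 0.139% by the exact interval, a limit on cells with a captured UMI and not on cells that express the gene.

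Apoe was spread over macrophages, monocytes, B cells and stroma. Its macrophage-like level was 9323 CPM in control, 11790 under anti-PD-1, 9750 under YKL-5-124 and 1493 in the combination. The combination alone was far below the other libraries, which lay within 1.3-fold of each other. Nonclassical monocyte-like cells had 3882, 5657, 1827 and 2280 CPM in the same order, and classical monocyte-like cells 3204, 2540, 2303 and 1683 CPM. The 41 fibroblast-like cells had 3629 CPM over all libraries and B cell-like cells 1023 CPM. Of all Apoe UMIs, 24.2% lay in macrophage-like cells, 18.1% in nonclassical monocyte-like cells, 16.0% in B cell-like cells and 12.8% in classical monocyte-like cells. Dendritic cells were low, with 39.1 CPM in conventional dendritic 2-like and 3.19 CPM in conventional dendritic 1-like cells. T cell-like cells held 11.3 CPM, with a UMI in 2.49% of cells.

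Trem2 lay mainly in the monocyte and macrophage lineage. In macrophage-like cells it stood at 117 CPM in control, 190 under anti-PD-1, 215 under YKL-5-124 and 193 in the combination, from 15, 31, 55 and 80 UMIs. Unlike the other members it was lowest in control. Classical monocyte-like cells had 103 CPM over all libraries, the cells led by Hpse and Id3 had 86.0 CPM and nonclassical monocyte-like cells 53.7 CPM. In other lineages 2 of 2651 T cell-like cells, 2 of 2241 B cell-like cells and 0 of 1225 NK cell-like cells held a Trem2 UMI. Macrophage-like cells held 28.4% of its UMIs and classical monocyte-like cells 24.5%, which are overlapping shares (24.9 to 32.1% and 21.2 to 28.0%).

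Most Cd72 RNA lay in lymphocytes. B cell-like cells held 50.8% of its UMIs and macrophage-like cells 6.37%. The B cell level was 366 CPM in control, 261 under anti-PD-1, 209 under YKL-5-124 and 223 in the combination. The macrophage-like level was 282, 73.6, 266 and 45.8 CPM in the same order, from 36, 12, 68 and 19 UMIs. These UMIs lay in few cells, 10 of 40 in control, 3 of 42 under anti-PD-1, 13 of 48 under YKL-5-124 and 12 of 68 in the combination. Plasmacytoid dendritic-like cells had 154 CPM, conventional dendritic 2-like cells 154 CPM and NK cell-like cells 142 CPM, the last with a UMI in 22.6% of 1225 cells against 7.62% of T cell-like cells. The NK cell level was close in all libraries, from 127 to 158 CPM.

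Inside the macrophage-like class, C1q-rich cells had more Apoe, Trem2, Cd72 and Ms4a7 than C1q-poor cells in all 4 libraries. The class held 120 rich and 78 poor cells. Apoe was 10010 CPM in rich against 2135 CPM in poor cells, a ratio of 4.69 (4.37 to 5.03), with 5.66, 2.38, 3.71 and 14.1 by library. Trem2 was 260 against 99.6 CPM, a ratio of 2.61 (1.84 to 3.77). Its interval included 1 in control, at 3.36 (0.907 to 18.6) from 12 against 3 UMIs. The same held under anti-PD-1, at 2.38 (0.951 to 7.08) from 25 against 6 UMIs. Cd72 was 223 against 39.4 CPM, a ratio of 5.65 (3.38 to 10.0), and under anti-PD-1 it rested on 12 UMIs in 3 rich cells against 0 UMIs. For Ms4a7 the levels were 571 and 48.6 CPM and the ratio 11.7 (7.55 to 19.3). The rich cells were shallower, with a median of 3541 UMIs against 5066, and the part of depth in these ratios was not tested. They also lay more often in subcluster 9, which held 41 of the 120 rich cells (34.2%) and 14 of the 78 poor cells (17.9%). Over all 6499 genes with a mean of at least 10 CPM, 20.4% lay at least 1.5-fold apart in either direction on the log2(CPM + 10) scale. That scale understates the ratio of low genes, and the 1.5-fold limit is a size criterion with no test behind it.

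**Figure D3:**
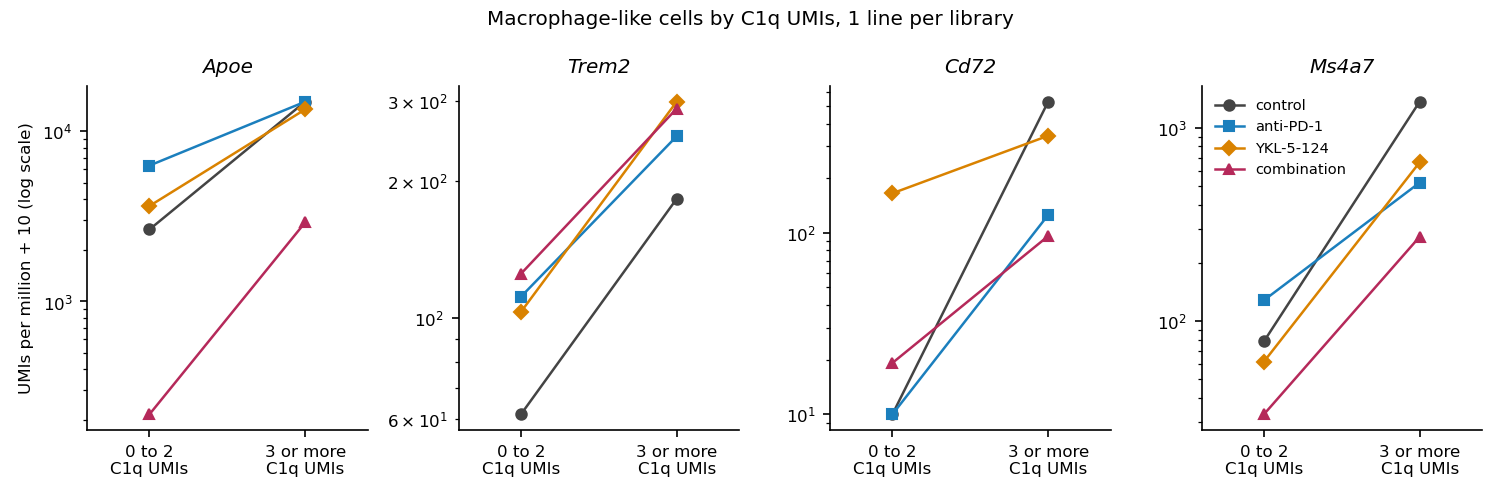
Apoe, Trem2, Cd72 and Ms4a7 in C1q-rich and C1q-poor macrophage-like cells of each library (CPM plus 10, log scale), with 1 line per library. Rich cells are higher in 4 of 4 libraries for each gene, and for Apoe the combination has the steepest line. The Trem2 ratios of control and anti-PD-1 have intervals that include 1.

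Genes of resident macrophages accompanied C1q in these cells. Of 20 measured genes on a resident macrophage list 14 were at least 1.5-fold higher in rich cells and 0 were lower, with a median log2 difference of 1.16 against -0.05 over all genes. Among them Pf4, a chemokine of tissue macrophages and platelets, stood at 583 against 44.0 CPM, the tetraspanin Cd81 at 543 against 46.3 CPM and the selenium carrier Selenop at 858 against 211 CPM. The folate receptor gene Folr2 and Lyve1, both markers of tissue-resident macrophages, had 54.7 and 22.6 CPM in rich cells and no UMI in poor cells. With Gas6, at 33.9 against 0 CPM, they passed the minimum of 10 CPM through the rich cells alone and count among the 14. Within subcluster 4, whose cells were 79 rich and 64 poor, 15 of 20 genes of the list were higher and 0 lower, where 22.8% of all genes passed. Within subcluster 9, with 14 poor cells, 15 of 18 were higher and 3 lower, where 75.4% of all genes passed. Efferocytosis genes, which serve the uptake of dying cells, were higher for 5 of 10 and lower for 0. Of the 5, Gas6 and Stab1 are also on the resident list. Gas6 and Itgb5 (54.7 against 9.27 CPM) reached 10 CPM in rich cells only. Beside the counts over the whole class in this paragraph, 20.4% of 6499 genes passed in either direction. Of 14 measured genes tied to Trem2 and Apoe 5 were higher and 2 lower. Spp1 stood at 2270 against 1170 CPM and the lysosomal gene Cd63 at 1978 against 994 CPM, but Gpnmb was lower at 145 against 310 CPM. The MHC class II genes, which serve antigen presentation, had 0 higher and 1 lower of 9. The largest differences found in all 4 libraries were in Vcam1, an adhesion molecule, at 175 against 0 CPM, and H2-M2 at 217 against 4.63 CPM. Vcam1 was also a leading gene of subcluster 9. Poor cells had more Slpi, a secreted protease inhibitor, at 730 against 50.9 CPM, and more Inhba at 211 against 30.2 CPM. The libraries differed in size here. The log2 differences of rich to poor cells were -8.00, -1.78, -6.31 and -0.18 for Slpi and -1.44, -0.45, -5.83 and -0.99 for Inhba.

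Against classical and nonclassical monocyte-like cells, the macrophage-like class was compared for the same lists. The classes were made from these cells' own expression, and some resident and lipid-associated genes served as markers, so the values describe the classes. Of 6521 genes 31.5% lay at least 1.5-fold apart, with a median log2 difference of -0.03. MHC class II genes were higher for 8 of 8, with a median of 2.98, and H2-Ab1 stood at 11090 against 535 CPM. Resident macrophage genes were higher for 14 and lower for 1 of 18, with a median of 1.55. Of the higher ones Mertk, Mrc1, Pf4, Folr2, Stab1 and Hpgds reached 10 CPM in macrophage-like cells only, so they could only be called higher. Of the Trem2 and Apoe pathway genes 10 were higher and 4 lower of 14. The lipid-associated genes Spp1 (1776 against 6.50 CPM), Gpnmb (219 against 1.24 CPM), Cd63 (1536 against 18.9 CPM) and Lpl (216 against 5.89 CPM) were higher. The 4 lower genes were the signalling genes Tyrobp, Syk, Plcg2 and Hcst, with Tyrobp at 2630 against 5276 CPM. The Trem2 receptor and its adaptor thus stood in opposite order between the classes. In the MS4A family Ms4a6d was higher at 685 against 270 CPM, and 4 of 7 measured genes were lower, Ms4a6c at 590 against 1370 CPM among them. Complement receptors and regulators were divided, with 4 higher and 4 lower of 10. The C3a receptor gene C3ar1 stood at 162 against 0.929 CPM, and the integrin gene Itgam was lower at 97.7 against 175 CPM. For lipid transport 5 genes were higher and 2 lower of 11, with the cholesterol exporter Abca1 at 30.1 against 3.72 CPM and the uptake receptor Scarb1 at 23.9 against 93.5 CPM. Efferocytosis genes were higher for 4 and lower for 0 of 9, and Mertk, Axl and Stab1 among the 4 are also on the resident list. Central and alternative complement genes were higher for 2 and lower for 1 of 4. Cd72 partners were higher for 1 and lower for 2 of 4, the phosphatase Ptpn6 among the lower. In the other lists H2-DMb2, Ciita, Spp1, Gpnmb, Lpl, C3ar1, Abca1, Cfb and Blnk also reached 10 CPM in macrophage-like cells only.

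In the macrophage-like cells of the combination, 6 of the 7 genes were at least 1.5-fold lower than in control and Trem2 was at least 1.5-fold higher. In that comparison 41.8% of 6412 genes passed the same size rule in either direction, so the passing of the rule alone says little. Among all genes, ordered from the lowest log2 difference, Apoe lay at percentile 0.312, Ms4a7 at 0.515, Cd72 at 0.546, the C1q chains at 2.34 to 2.43 and Trem2 at 82. The genes were chosen with earlier results of these libraries known, so these ranks are a description and no test. Apoe was 0.160 of control (0.145 to 0.177), Cd72 0.163 (0.0881 to 0.291) and Ms4a7 0.179 (0.127 to 0.251). The C1q chains were 0.309 for C1qa (0.270 to 0.355), 0.323 for C1qb and 0.317 for C1qc. Trem2 was 1.64 of control (0.939 to 3.07), an interval that includes 1, and 1.39 in subcluster 4 alone. With each cell weighted equally the ratios were nearer to 1, at 0.243 for Apoe, 0.283 for Cd72, 0.419 for Ms4a7, 0.520 for C1qa, 0.480 for C1qb and 0.484 for C1qc. In control 5 cells held 81.6% of the Ms4a7 UMIs. Apoe UMIs occurred in 42.7% of the combination's macrophage-like cells and in 75%, 78.6% and 83.3% of those of control, anti-PD-1 and YKL-5-124. At 1500 UMIs a cell the share was 34.4% in the combination and 71.4%, 70.6% and 74.4% in the others. The 5 cells with most Apoe held 61.3% of its UMIs in the combination and 50.9% in control.

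The make-up of the class differed between libraries beside these ratios. In control 25 of 40 macrophage-like cells lay in subcluster 9, against 15 of 42 under anti-PD-1, 10 of 48 under YKL-5-124 and 5 of 68 in the combination, where subcluster 4 held 63. Within subcluster 4 alone, Apoe was 10610, 10110, 7243 and 1372 CPM by library. C1qa was 4000, 1859, 2431 and 921 CPM and Ms4a7 1221, 335, 333 and 128 CPM in the same order. The combination was thus lowest within that subcluster too, while the Trem2 levels of 140, 175, 192 and 195 CPM lay within 1.5-fold of each other. In subcluster 9 C1qa stood at 2544, 3926, 6412 and 6165 CPM, lowest in control, but the combination had 5 cells there. Apoe stood at 7702, 18720, 36860 and 6814 CPM in subcluster 9, and Ms4a7 at 194, 503, 1430 and 541 CPM. Each C1q chain and Ms4a7 were thus higher in the combination than in control there, Ms4a7 from 5 against 11 UMIs. The Apoe intervals of the combination (5236 to 8718 CPM) and control (6996 to 8460 CPM) overlapped. Control was thus highest for C1qa in subcluster 4 and lowest in subcluster 9.

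The C1q-rich cells gave a comparison that does not use the clusters. Apoe was missing from 23 of 50 rich cells in the combination, against 5 of 36 in control, 5 of 34 under anti-PD-1 and 5 of 43 under YKL-5-124. The median cell had 508 CPM in the combination and 8019, 4821 and 7375 CPM in the others. The ratio of the combination to control was 0.244 (0.222 to 0.267). In cells with 10 or more C1q UMIs it was 0.328 (0.297 to 0.362).

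With anti-PD-1 alone, 3 of the 7 genes were lower and 1 higher in macrophage-like cells, against 44.5% of 6706 genes past the rule. The lower genes were C1qc at 0.574 of control (0.489 to 0.673), Ms4a7 at 0.480 and Cd72 at 0.261, the last from 12 UMIs in 3 cells. With each cell weighted equally C1qc was 0.787 and Ms4a7 0.676, both under the size rule. Trem2 was 1.62 of control (0.849 to 3.23) but 1.25 in subcluster 4 alone. Apoe was 1.27 (1.18 to 1.36), under the size rule, and 0.953 in subcluster 4 alone. With YKL-5-124 alone Ms4a7 was lower at 0.555 (0.419 to 0.737) and Trem2 higher at 1.83 (1.02 to 3.49), against 37.5% of 6189 genes. Ms4a7 was 0.847 with each cell weighted equally, and Trem2 was 1.37 in subcluster 4 alone. The C1q chains lay at 0.775 to 0.870 of control, Cd72 at 0.943 and Apoe at 1.05 with that agent, all within the size rule. In subcluster 4 alone Apoe was 0.683, on the other side of 1. There the C1q chains, Cd72 and Ms4a7 were lower with YKL-5-124 and past the size rule. C1qa was 2431 against 4000 CPM in control, C1qb 2632 against 4098, C1qc 1804 against 3467 and Cd72 282 against 463. Over the whole class, with each cell weighted equally, C1qb was 1.04 of control and C1qc 1.06. These 3 comparisons share the control library.

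Against YKL-5-124 alone, the combination was lower for 6 of 7 genes in macrophage-like cells, where 29.7% of 6354 genes passed in either direction. Apoe was 0.153 of the single agent (0.140 to 0.167), Cd72 0.172 and the C1q chains 0.372 to 0.409, while Trem2 was 0.897 (0.629 to 1.29). Against anti-PD-1 alone the combination was lower for 5 of 7, where 39.1% of 6502 genes passed. Apoe was 0.127 of that agent (0.116 to 0.139), the C1q chains 0.436 to 0.553 and Ms4a7 0.373. Trem2 was 1.01 (0.662 to 1.59) and Cd72 0.622 (0.287 to 1.4) in that comparison. Apoe in the combination was thus lower than with either single agent.

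**Figure D4:**
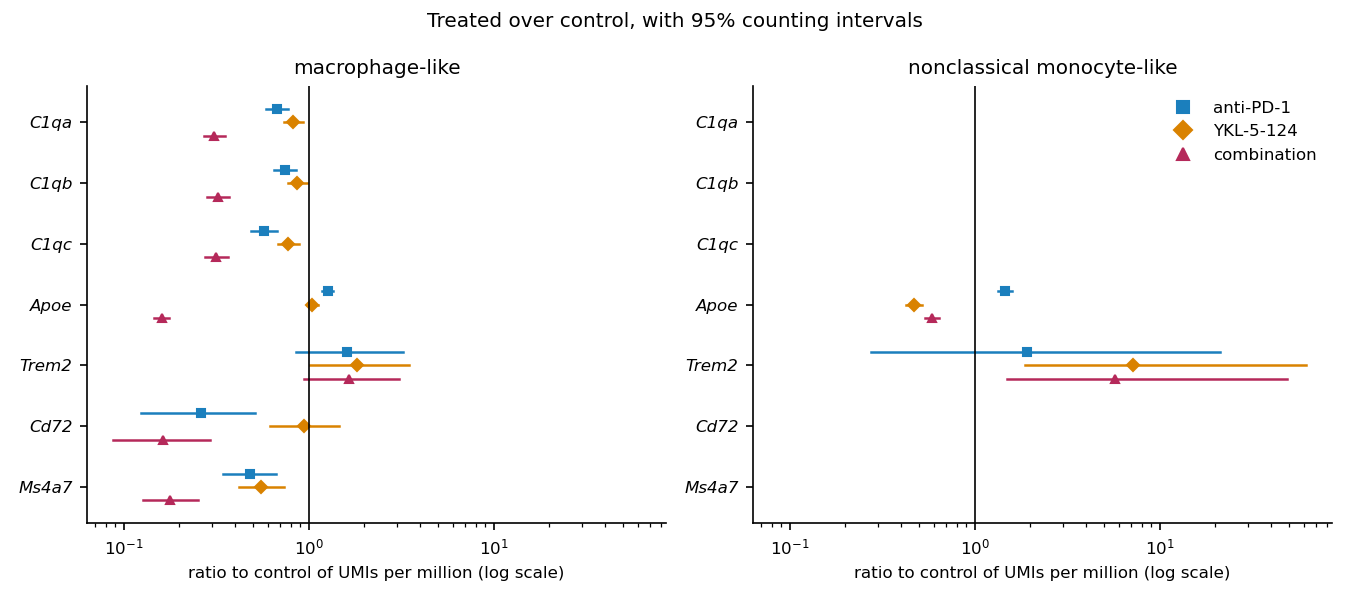
Ratios of each treated library to control (x axis, log scale, bars are exact 95% intervals for counting error) for the 7 genes in macrophage-like cells and for Apoe and Trem2, the members measured there, in nonclassical monocyte-like cells. In macrophage-like cells 6 of 7 genes are at least 1.5-fold lower in the combination, whereas the Trem2 point lies above 1 for each treatment.

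Other macrophage genes in the same comparison did not all follow. In the combination, 6 of 19 measured resident macrophage genes were lower than in control and 0 were higher, with a median log2 difference of -0.36 against 0.03 over all genes. Since 41.8% of all genes passed in either direction, the counts of this list and of those that follow are not read as results about the lists. Cd81 stood at 145 against 712 CPM, Pf4 at 176 against 454 CPM and Selenop at 246 against 493 CPM. Lipid transport genes were lower for 5 and higher for 0 of 11. Among these were Scarb1 at 9.64 against 78.2 CPM and Abcg1, a cholesterol exporter, at 89.1 against 203 CPM. Of 14 genes tied to Trem2 and Apoe 4 were higher and 4 lower, with Spp1 at 2587 against 868 CPM and Gpnmb at 282 against 102 CPM higher, and the lipase gene Lpl at 157 against 477 CPM lower. MHC class II genes had 1 higher and 0 lower of 9. Lpl, Abcg1 and Scarb1 were also lower under YKL-5-124 and under anti-PD-1, but Spp1 was 1964 CPM under YKL-5-124 and 129 CPM under anti-PD-1. Properdin, the product of Cfp and a stabiliser of the alternative pathway, was higher in each treated library, at 454 CPM under anti-PD-1, 340 under YKL-5-124 and 287 in the combination against 172 in control.

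In nonclassical monocyte-like cells, a patrolling subset, Apoe and Trem2 differed in opposite directions in both libraries that received YKL-5-124. The cells numbered 80 in control, 89 under anti-PD-1, 180 under YKL-5-124 and 251 in the combination. Apoe was 0.471 of control under YKL-5-124 (0.428 to 0.518), 0.587 in the combination (0.539 to 0.641) and 1.46 under anti-PD-1 (1.33 to 1.6), the last under the size rule. Apoe UMIs occurred in 68.3% and 68.9% of cells in the libraries under YKL-5-124 and in 92.5% and 88.8% of control and anti-PD-1 cells. Trem2 stood at 10.3 CPM in control, 19.8 under anti-PD-1, 74.2 under YKL-5-124 and 58.9 in the combination, from 2, 4, 41 and 45 UMIs. Its ratio to control was 7.20 under YKL-5-124 (1.87 to 61.5) and 5.72 in the combination (1.49 to 48.7), wide intervals because control had 2 UMIs. With anti-PD-1 it was 1.92 (0.275 to 21.2). The shares of all genes past the size rule were 23.0% for YKL-5-124, 22.4% for the combination and 30.5% for anti-PD-1.

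Between the treated libraries, the combination had 0.403 of the Apoe level of anti-PD-1 in nonclassical monocyte-like cells and 2.98 of its Trem2 level (1.09 to 11.4), where 22.7% of genes passed. Against YKL-5-124 alone the combination differed by less than 1.5-fold in both, at 1.25 for Apoe and 0.794 for Trem2, where 9.15% of genes passed. In macrophage-like cells the Apoe ratio between the same libraries was 0.153, and the difference between the subsets was not tested. Lower Apoe in both libraries that received YKL-5-124 was also seen inside the subclusters. Subcluster 0 had 3916, 5620, 2336 and 2376 CPM of Apoe by library, and subcluster 3 had 3178, 5547, 1625 and 2119 CPM. Subcluster 8, the smallest, with 7 control cells, had 6787, 6465, 948 and 2538 CPM. Trem2 in subcluster 0 was 0, 18.6, 32.1 and 6.71 CPM, from 0, 2, 7 and 2 UMIs. The combination did not exceed anti-PD-1 there, and the UMIs are too few to order these libraries. In subcluster 3 Trem2 was 26.7, 25.3, 85.1 and 110 CPM, from 2, 2, 23 and 39 UMIs. In subcluster 8 it was 0, 0, 171 and 36.1 CPM, from 0, 0, 11 and 4 UMIs. Barcodes of 10 to 100 UMIs, taken as free RNA, held 14.5, 16.7, 20.4 and 23.7 CPM of Trem2 by library. The part of such RNA in these values was not tested.

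**Figure D5:**
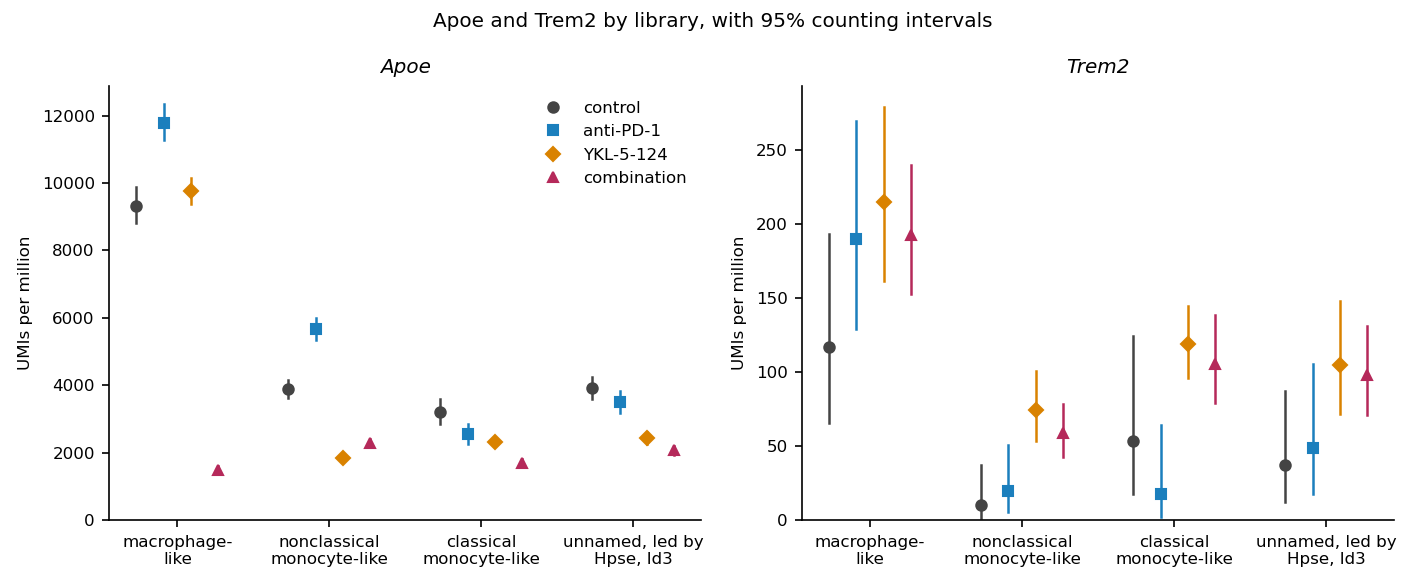
Apoe and Trem2 levels (CPM, with exact 95% intervals for counting error) by library in macrophage-like cells, in nonclassical and classical monocyte-like cells and in the cells led by Hpse and Id3. In nonclassical monocyte-like cells both libraries under YKL-5-124 have lower Apoe (1827 and 2280 against 3882 in control) and higher Trem2 (74.2 and 58.9 against 10.3).

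Classical monocyte-like cells, the inflammatory subset that enters tissue, numbered 21 in control and 29 under anti-PD-1 against 181 under YKL-5-124 and 117 in the combination. Apoe was 0.525 of control in the combination (0.460 to 0.601), 0.719 under YKL-5-124 and 0.793 under anti-PD-1. The combination passed the size rule, and 34.8% of all genes did so there, with 33.8% for YKL-5-124 and 48.2% for anti-PD-1. Trem2 was 2.22 of control under YKL-5-124 (0.921 to 7.0), 1.98 in the combination (0.797 to 6.36) and 0.332 under anti-PD-1 (0.0316 to 2.03), intervals that all include 1. Ms4a7 was 2.52 of control under YKL-5-124 (0.408 to 104), 3.32 under anti-PD-1 (0.328 to 163) and 1.33 in the combination (0.171 to 60.1), from 22, 4 and 7 UMIs against 1 in control. These ratios lay on the other side of 1 from those in macrophage-like cells, and the difference was not tested. In the cells led by Hpse and Id3 the pattern of the nonclassical subset recurred. Apoe was 3905, 3491, 2421 and 2066 CPM and Trem2 37.3, 48.6, 105 and 97.9 CPM by library.

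The treatments were also accompanied by different Apoe levels in B cell-like cells, which numbered 2241. Apoe stood at 1750 CPM in control, 1132 under anti-PD-1, 563 under YKL-5-124 and 591 in the combination. The ratios to control were 0.647 (0.598 to 0.700), 0.322 (0.294 to 0.351) and 0.338 (0.306 to 0.372). A minority of cells carried much of it. Cells with 10 or more Apoe UMIs made up 54 of 634 B cell-like cells in control (8.52%), 23 of 419 under anti-PD-1 (5.49%), 9 of 691 under YKL-5-124 (1.30%) and 16 of 497 in the combination (3.22%). These 102 cells held 60.6% of the Apoe UMIs of the class, with 70.3%, 56.9%, 45.9% and 48.6% by library. Of the 102 cells 101 had a UMI of the B cell receptor gene Cd79a, 6 of the myeloid gene Lyz2 and 0 of Csf1r, and they held 2 C1q UMIs in all. Over the whole class Lyz2 UMIs occurred in 4.42%, 6.21%, 16.2% and 15.7% of B cell-like cells by library, against 5.77%, 5.95%, 17.1% and 14.8% of T cell-like cells, and the part of such RNA in the Apoe values was not tested. No T cell-like cell of 2651 had 10 Apoe UMIs, and the highest had 3. Cd72 was also lower in B cell-like cells, at 0.572 of control under YKL-5-124 (0.487 to 0.671) and 0.611 in the combination. With anti-PD-1 it was 0.714, under the size rule. The share of all genes past that rule is not given for B cell-like cells, so passing it says little here.

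Genes with the most similar distribution were found over 67 sums of UMIs by class and library, covering 22 classes or subsets. These correlations describe shared cell types, since the sums share libraries and classes. With the mean of the 3 C1q chains, Pearson's r on the log2(CPM + 10) scale was 0.885 for C3ar1, 0.852 for Pf4, 0.845 for the macrophage elastase Mmp12, 0.822 for the mannose receptor gene Mrc1 and 0.811 for the chemokine gene Ccl12. Mmp13, Fcrls, Cxcl9, Rab3il1 and Ccl24 followed with 0.771 to 0.799. The nearest genes to Apoe were Apobec1 (0.864), Mpp1 (0.806) and Cybb (0.802), and genes near Trem2 were F10 (0.867) and Msr1 (0.860). Ms4a7 was nearest to C3ar1 (0.863), Mmp13 (0.837) and Ccl12 (0.835). Genes near Cd72 were the lymphocyte gene Gpr171 (0.837) and Serpina3g (0.753). Among the members themselves, r with C1q was 0.772 for Ms4a7, 0.611 for Trem2, 0.391 for Apoe and 0.258 for Cd72, the same order as their shares of UMIs in macrophage-like cells (70.1%, 28.4%, 24.2% and 6.37%).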

How the data were processed

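The deposited matrices hold whole-number UMI counts for each gene in each barcode, which the authors made with bcl2fastq and Cell Ranger, per the submitters' processing notes; version 3.0.0 stands in the file headers. Although those notes list hg19, all gene IDs are mouse Ensembl IDs, and for the counts no build is given in the sources used here. The 7 genes and the lists were chosen with earlier results of these data known. Where libraries shared cell barcodes, the copies were kept and results were also computed without them.

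Cells passed the limits given in the report. Scrublet's automatic threshold marked 15 cells, under 0.5%, so the highest scores, 0.8% per 1000 cells, were removed instead. Without the 7 genes, 2000 variable genes, 30 principal components and 15 neighbours gave Leiden clusters at resolution 1; the monocyte, macrophage or dendritic class was clustered again from 1000 genes and 20 components. A cluster was named from 3 or more fixed markers present in 10% or more of its cells and 2-fold or more above other clusters, and stayed unnamed where its leading genes went against the name. UMIs were summed by class and library, scaled to CPM, and given exact Poisson, binomial or conditional binomial intervals. Differences used log2(CPM + 10), a mean of at least 10 CPM and at least 20 cells per library, and 1.5-fold as a size rule. With 1 library per group no test was run. The text names all 7 genes, per list up to 4 genes with the highest level or largest difference in macrophage-like cells, and genes of similar distribution by correlation. Some genes that this rule takes are not reported here. Genes named for the rich and poor comparison and the B cells with 10 or more Apoe UMIs were chosen after their values were seen. The steps were tested on simulated counts. Alternatives were other UMI and mitochondrial limits, doublets kept, Leiden resolution 2, the 7 genes in the clustering and per-cell means. Size factors, another pseudocount, no filter, subtracted free RNA and other C1q limits were used as well. Those without low-count copies, for subcluster 4 alone and for C1q-rich cells alone were added after seeing the data. Python 3.11.15, Scanpy 1.11.5, leidenalg 0.10.2 and SciPy 1.17.1 were used.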

Additional observations from a re-analysis of the deposited data

Results flagged for a closer look

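With anti-PD-1, Apoe was lower than control in B cell-like cells, at 0.647 of control, and higher in NK cell-like cells, at 3.896 of control (1.42 to 13.3), and in unnamed cells led by Tnfrsf4 and Ctla4, at 6.93 of control (2.78 to 22.3). The opposite directions drew attention, and the difference between the classes was not tested. The NK cell ratio rests on 20 against 5 UMIs, with 9 of the 20 in 1 cell, and the ratio in the unnamed cells on 49 against 5 UMIs.

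Barcodes of 101 to 499 UMIs, which no comparison used, held C1qa, C1qb and C1qc together at 192.5 CPM (178.6 to 207.3). The level was 205.8 CPM in barcodes of 10 to 100 UMIs and 110.3 CPM in cells, so the C1q share was higher in both ranges of low barcodes than in cells.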

How the results depend on the processing

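Other settings left 589 values the same and moved 97, those added after seeing the data left 104 and moved 43, and no value past 1.5-fold reversed direction. Subcluster 9 alone was not among the settings. In it C1qa and Ms4a7 were higher in the combination than in control, from 5 cells of the combination. A value counted as the same if it stayed inside its main interval. With the smaller pseudocount or no filter a ratio could not change, so it counted as the same. For numbers of the 7 genes called and percentages of all genes past the rule, the same meant within 1.5-fold. Under that size, Apoe in macrophage-like cells changed side: with YKL-5-124 (1.05 of control) it was 0.901 in C1q-rich cells and 0.683 in subcluster 4, and with anti-PD-1 (1.27) 0.953 in subcluster 4. With YKL-5-124, per-cell means put C1qb (0.870) at 1.04 and C1qc (0.775) at 1.06, and Cd72 (0.943) lay at 1.01 to 1.10 under 3 settings. The lower calls of 6 genes in the combination's macrophage-like cells held under all 12 settings that gave a value. The smaller pseudocount and no filter were among the 12 and could not have undone a call. Apoe there (0.160 of control) was 0.195 in C1q-rich cells alone, 0.233 at Leiden resolution 2, 0.243 as a mean of per-cell CPM, 0.129 in subcluster 4 alone and 0.139 without low-count copies. Apoe in nonclassical monocyte-like cells with YKL-5-124 (0.471) was 0.406 at a 5% mitochondrial limit, 0.420 at resolution 2 and 0.427 with the 7 genes in the clustering, and in the combination (0.587) it was 0.482 at the 5% limit. The C1q-rich share of the combination was 0.767% with a minimum of 10 UMIs, the lowest of the libraries. Of the 7 genes in macrophage-like cells, the number higher went from 1 to 0 in subcluster 4 alone for each treatment, and for anti-PD-1 also to 0 in C1q-rich cells and with the 7 genes in the clustering, and to 2 with doublets kept, with per-cell means and without low-count copies. The number lower with YKL-5-124 went from 1 to 2 in C1q-rich cells, 0 with per-cell means and 5 in subcluster 4, and with anti-PD-1 from 3 to 5 in C1q-rich cells and in subcluster 4 and 1 with per-cell means. The cause was not tested. Classical monocyte-like ratios could be computed under 4 settings only, the smaller pseudocount and no filter among them, since control fell under 20 cells in the others. No paired analysis was possible because each group has 1 library. Low UMI numbers limit Trem2, Cd72 and, in monocyte-like cells, Ms4a7.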
